A study of Mus musculus with 2 samples.

Results

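The cells described here are Cd209a-type MHC II-high dendritic cells from MC38 tumors, chosen by the genes they expressed. A member needed at least 1 UMI (1 counted mRNA molecule) of at least 4 of 8 genes: *Klrd1*, *Plet1*, *Cd209a*, *Ccl17*, *Kmo*, *Ffar2*, *Dpp4* and *H2-DMb2*. It also needed fewer than 3 of *Xcr1*, *Clec9a*, *Flt3*, *Itgae* and *Btla*, which mark conventional dendritic cells of type 1 (cDC1). Cells with at least 2 UMIs of both *Ccr7* and *Fscn1*, as in mature migratory dendritic cells, and cells with 2 or more UMIs of *Cd3d*, *Cd3e* and *Cd3g* together were left out. Of 9911 cells within the quality limits, 368 had at least 4 of the 8 genes, and 40, 14 and 4 of these were then removed by the cDC1 genes, by *Ccr7* with *Fscn1* and by the Cd3 genes. This left 310 members, 3.13% of the cells (exact Clopper-Pearson 95% interval 2.79 to 3.49%).

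MC38 is a mouse colorectal cancer line, here grown under the skin of female C57BL/6 mice aged 6 to 8 weeks. Mice received either vehicle (control) or telmisartan, a blocker of angiotensin receptor AT1 and partial agonist of PPARG, at 5 mg/kg daily into the stomach, and tumors were taken on day 13. Live CD45-positive cells were sorted from 5 mice per group, pooled within the group, labelled with 1 Sample Tag per pool and run in 1 mixed BD Rhapsody capture. The deposited UMI counts cover 20726 putative cells. Within the limits are 5078 control cells, holding 47995111 UMIs in all, and 4833 telmisartan cells, holding 34974017. The 187 control members hold 1828429 UMIs, with a median of 9055 per cell, and the 123 telmisartan members hold 1006712, with a median of 7541. Each group is 1 pool, so no difference between groups could be tested and no p-value is given. Every interval printed with a value covers counting error only. Levels are CPM, the UMIs of a gene per 1000000 UMIs of the same cells.

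Dendritic cells take up antigen and show it to T cells. Type 2 conventional dendritic cells, which depend on the factor IRF4, load peptides onto MHC class II for CD4 T cells, and in inflamed tissue some dendritic cells arise from monocytes and share lectins such as *Cd209a* and *Mgl2* with them. *Cd209a* encodes a mouse relative of the human lectin DC-SIGN, *Klrd1* encodes the CD94 chain of natural killer receptors, *Kmo* an enzyme of tryptophan breakdown, and *Plet1* a surface protein of epithelia and of some dendritic cells.

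The 8 genes of the rule were found in unequal shares of the members, which describes the choice and tests nothing. *H2-DMb2*, a chaperone chain of MHC class II, had a UMI in 301 of 310 members (97.1%), *Klrd1* in 257 (82.9%), *Kmo* in 240 (77.4%) and *Ccl17* in 220 (71.0%). *Dpp4* was found in 197 (63.5%), *Plet1* in 175 (56.5%) and *Ffar2*, a receptor of short-chain fatty acids, in 105 (33.9%). *Cd209a*, the gene of the label, had a UMI in 106 members (34.2%, 28.9 to 39.8%), so most members were chosen by other genes. For reference, among 232 cells with at least 2 UMIs of the Cd3 genes, *Cd209a* was found in 0.862%, *Kmo* in 2.59% and *H2-DMb2* in 6.47%, at a median of 5698.5 UMIs per cell against 8241.5 in the members. *Klrd1*, which T cells can express, was found in 37.9% of them. At least 4 macrophage genes were found in 44.8% of these T cells and 63.2% of members, and after thinning in 35.9% and 16.2%. Free RNA and mixed profiles were not told apart. After thinning every cell to 2000 UMIs, which leaves 308 members and 198 T cells, *Cd209a* was found in 18.5% of members and 0.505% of T cells, and *H2-DMb2* in 72.4% and 2.02%.

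The threshold of 4 genes falls on a slope. Exactly 4 genes were found in 105 members, 5 in 99, 6 in 63, 7 in 36 and all 8 in 7. Just outside it, 168 cells had exactly 3 and met the other criteria. Members with exactly 4 genes and these cells stood at 9272 and 7604 CPM of *H2-Eb1*, at 8551 and 5518 CPM of the protease inhibitor gene *Cst3*, and at 107 and 52.5 CPM of *Cd209a*. They also stood at 2314 and 5149 CPM of *Lyz2* and at 464 and 1100 CPM of *C1qb*, both myeloid genes that macrophages carry in quantity. The cells with 3 genes had a median of 8614.5 UMIs and the members with 4 had 7135, and the part of depth in these levels was not tested.

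**Figure D1:**
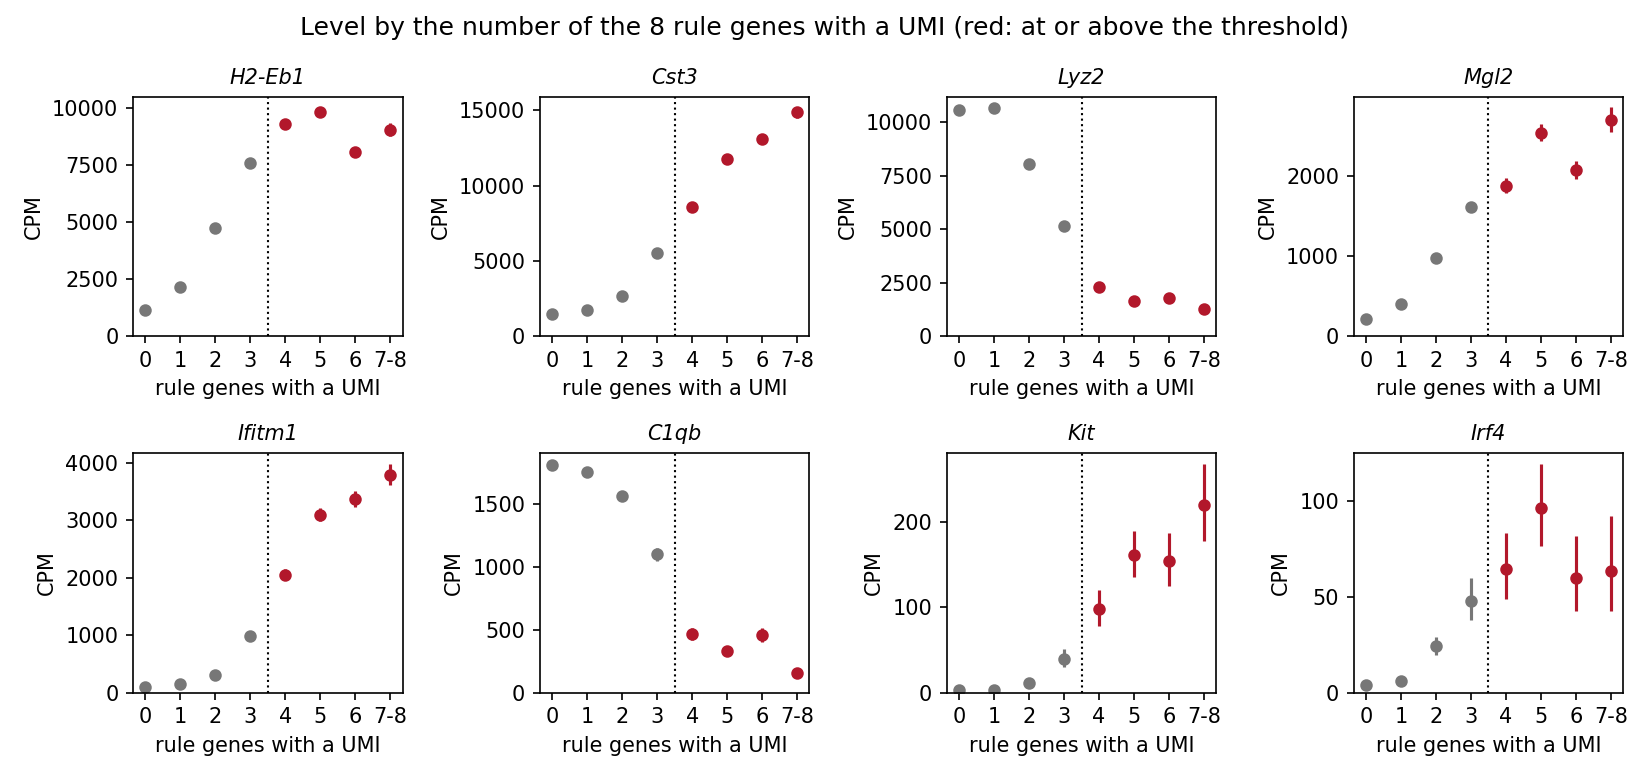
Level in CPM (linear axis from 0) of 8 genes in cells grouped by how many of the 8 rule genes had a UMI, with exact Poisson 95% intervals. All cells meet the other criteria, and points right of the dotted line (red) are members. *H2-Eb1* stood at 7604 CPM with 3 genes and 9272 with 4, and *Lyz2* at 5149 and 2314.

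Among the members themselves, *Cst3* stood at 8551 CPM with 4 rule genes, 11751 with 5, 13105 with 6 and 14855 with 7 or 8. *Ifitm1* stood at 2050, 3097, 3371 and 3792 CPM over the same steps. *Kit* stood at 97.2, 160, 154 and 219 CPM and did not rise at every step. *H2-Eb1* had no such order, at 9272, 9841, 8074 and 9051 CPM, nor had *Irf4*, at 64.4, 96.5, 59.9 and 63.8. Median depth rose over these steps from 7135 to 7980, 9706 and 10094 UMIs, and its part in the order was not tested.

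MHC class II transcripts were found in every member. Per 10000 UMIs of a cell, *H2-Eb1* ranged from 6.13 to 214 with a median of 99.8, and 8 in 10 members lay between 55.2 and 145. The median of the remaining 9454 cells, those that are neither members nor in the dendritic comparison groups below, was 2.76. Their 90th percentile was 64.6 and their highest value 301, so some of them reached the levels of members. After thinning, *H2-Eb1* was found in all 308 members and in 29.3% of T cells. Summed over cells, the chain gene *H2-Aa* stood at 11860 CPM in members and 2539 in the remaining cells, and *H2-Ab1* at 13076 and 2810. The chaperone genes *H2-Oa* and *H2-Ob*, whose product tempers peptide loading, stood at 78.3 and 133 CPM in members and 2.12 and 6.10 in the remaining cells, but in the cDC1 group described below they stood at 78.3 and 162. *Ciita*, the gene of the class II transactivator, stood at 305 and 33.0 CPM, and at 375 in the cDC1 group. Of 16 MHC class II genes other than the rule gene *H2-DMb2*, 13 were higher in members than in the remaining cells (81.2%), against 4720 of 10434 genes that did not choose the cells (45.2%), a difference that was not tested. *H2-DMb2* lies with the other class II chain genes on chromosome 17.

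Of 10451 genes, 136 were at least 4 times as high in members as in the remaining cells (1.30%) and 369 at least 4 times lower (3.53%). Without the genes used to choose the cells, these were 123 (1.18%) and 366 (3.51%) of 10434. The comparison follows from the choice of cells, so these counts describe the members. Outside the 8 rule genes the 20 highest ratios include the dendritic factor *Zbtb46* (82.2 CPM in members, 2.40 in the remaining cells), the growth factor receptor *Kit* (148 and 4.48) and *Flt3* (37.0 and 1.66), although the rule holds *Flt3* down. Other dendritic cells carried them too, with *Zbtb46*, *Kit* and *Flt3* at 137, 197 and 326 CPM in 65 cells with the cDC1 genes and at 181, 78.8 and 380 in 82 cells with *Ccr7* and *Fscn1*. Killer-lectin genes of chromosome 6 other than *Klrd1* were among them, with *Klri1* at 55.4 and 1.05 CPM and *Klri2* at 44.8 and 1.18, and in the cDC1 group at 39.2 and 23.8. *Klrk1*, which encodes NKG2D, stood at 223 and 18.8 CPM, and *Klrb1b* at 491 and 43.7, against 120 and 413 in the cDC1 group. Of 9 natural killer markers, 2 were higher in members than in the remaining cells. UMIs were found for 5, summing to 244 CPM in members and 54.4 in the remaining cells, of which *Klrk1*, the most abundant, held 223 and 18.8. The other 4, *Ncr1*, *Eomes*, *Gzma* and *Prf1*, had 0 UMIs in the members, which allows up to 1.06 CPM.

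Further surface and signalling genes were higher in members than in the remaining cells, some of them also in other dendritic cells. The cDC1 group and the *Ccr7* and *Fscn1* cells are given in this order after the members and before the remaining cells. *Mgl2* stood at 2256, 726, 394 and 335 CPM and the lectin gene *Clec10a* at 206, 54.6, 28.6 and 18.6. Both belong, with *Irf4*, to a list of 12 genes of type 2 or monocyte-derived dendritic cells. That list summed to 4037, 1441, 1599 and 2128 CPM, with *Mgl2* the most abundant. Only 9 of the 12 were higher in members than in the remaining cells. *Il1r2*, the decoy receptor of interleukin 1, stood at 2058, 442, 252 and 207 CPM, while *Il1b* itself, at 3485 in members and 3080 in the remaining cells, was close. *Ifitm1*, an interferon-induced membrane gene, stood at 2941, 1651, 630 and 137 CPM and had a UMI in 275 of 310 members. In the tryptophan pathway *Kynu* stood at 91.0, 82.5, 109 and 5.15 CPM, so the members shared it with both dendritic groups. *Ido1*, *Ido2*, *Tdo2*, *Qprt* and *Acmsd* had 0 UMIs in members, while *Kmo* is a rule gene whose presence was chosen.

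**Figure D2:**
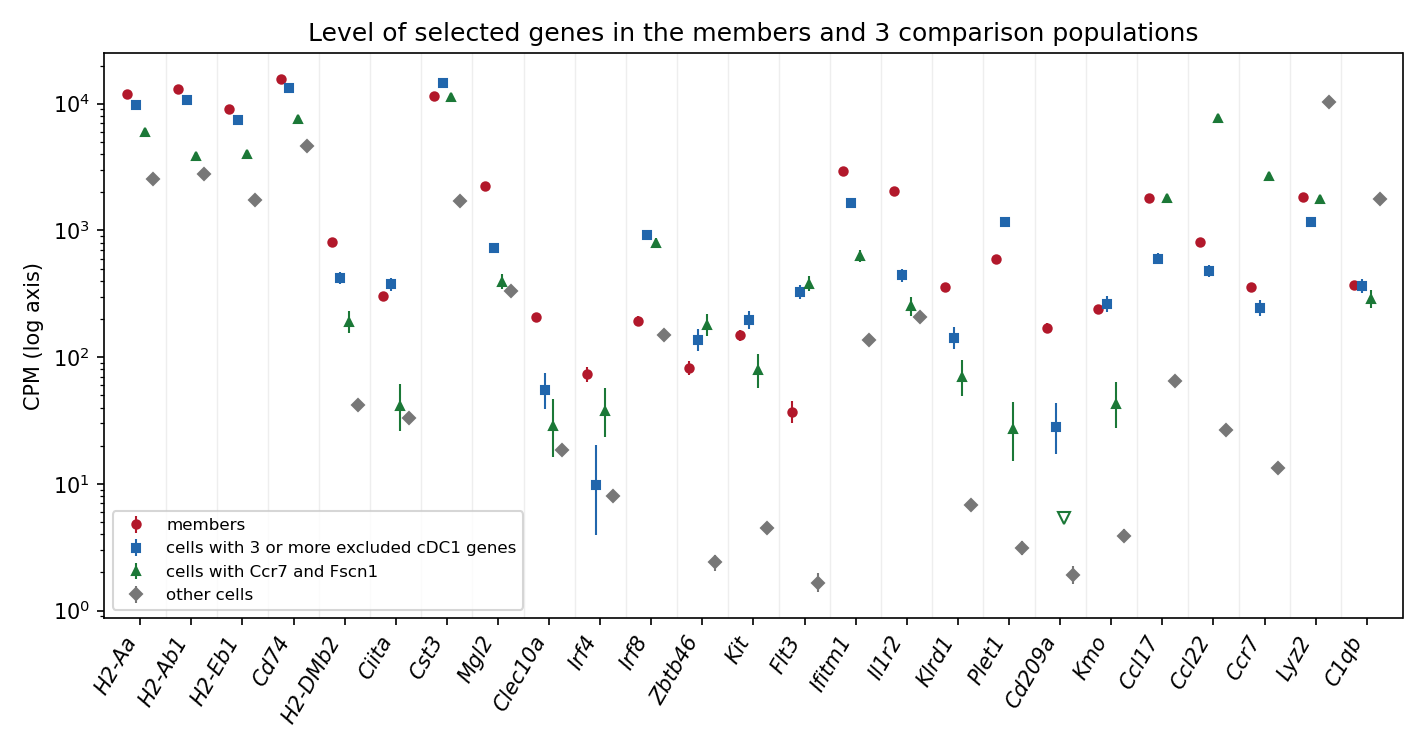
Level in CPM (log axis) of 25 genes in the 310 members, 65 cells with at least 3 of the excluded cDC1 genes, 82 cells with *Ccr7* and *Fscn1*, and 9454 other cells, with exact Poisson 95% intervals. The open triangle is the limit that 0 counts of *Cd209a* allow. *Irf4* stood at 73.0 CPM in members and 9.79 in the cDC1 group, and *Irf8* at 193 and 926.

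The rule sets apart 2 groups of dendritic cells, and the members were compared with both. At least 3 of the 5 cDC1 genes were found in 65 cells with 714748 UMIs (median 10501), whatever their other genes. Of 2898 genes, 11 were at least 4 times as high in members as in this group (0.380%) and 20 at least 4 times lower (0.690%). Part of this was fixed by the choice, as *Itgae*, *Clec9a*, *Flt3* and *Btla* are among the lower genes. Without the genes used to choose the cells, 10 (0.347%) and 15 (0.520%) of 2884 remained. *Irf4* was among the higher ones, at 73.0 CPM in members and 9.79 in the group, a log2 ratio of 2.90 (1.83 to 4.23). So were the phosphatase gene *Ptpro* (69.1 and 6.995), *Mfge8* (120 and 23.8) and *Il1r2* (2058 and 442). In the remaining cells *Irf4*, *Ptpro*, *Mfge8* and *Il1r2* stood at 8.01, 57.4, 19.3 and 207 CPM. *Mmp12*, *Clec5a*, *Egln3* and *Hilpda* were also among the higher ones, at 371, 127, 71.6 and 422 CPM in members. In the remaining cells they stood higher still, at 1029, 215, 138 and 624. *Irf8*, the factor that cDC1 depend on, was lower in members than in the group, at 193 and 926 CPM, a log2 ratio of -2.27 (-2.43 to -2.10). MHC class II levels stood close in both, with *H2-Aa* at 11860 and 9838 CPM, and so did *Kmo*, a rule gene, at 238 and 263. *Plet1*, also a rule gene, was lower in members at 594 and 1160 CPM. *Il12b*, which encodes a chain of interleukin 12, stood at 10.6 CPM in members and 498 in the group.

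Another 82 cells had at least 2 UMIs of *Ccr7* and of *Fscn1*, with 558619 UMIs (median 5794.5). Of 2763 genes, 107 were at least 4 times as high in members as in these cells (3.87%) and 70 at least 4 times lower (2.53%). *Fscn1*, which chose this group, is among the lower ones, and 101 (3.67%) and 67 (2.43%) of 2752 remained without the genes used to choose the cells. The members held more MHC class II RNA, at 13076 CPM of *H2-Ab1* against 3899, and more *Ciita*, at 305 against 41.2. They held less *Ccl22*, a chemokine gene, at 817 against 7710, and less of the T cell attractant *Ccl5*, at 76.9 against 3500. Of the rule genes, whose level in members follows from the choice, *Ccl17* stood at 1796 and 1794 CPM, and *Cd209a* had 0 UMIs in these cells, which allows up to 5.37 CPM. *Cd244a* and *Ctnnd2* were found in members at 71.2 and 110 CPM and had 0 UMIs in the *Ccr7* and *Fscn1* cells. Genes needed at least 200 UMIs in these comparisons of populations, which both met through the members alone. The members hold more UMIs, so genes high in them meet this limit more readily.

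Markers of other cell types were read in the members as whole lists, summed in CPM for members and for the remaining cells. The 10 cDC1 genes summed to 953 and 466 CPM and the 10 mature migratory dendritic genes to 1569 and 334. In each list 9 of 10 were higher in members, where 45.2% of genes that did not choose the cells were. In the cDC1 group and the *Ccr7* and *Fscn1* cells their own lists summed to 4410 and 18866 CPM. The choice limits some of these genes. The 8 monocyte genes summed to 1472 and 3907 CPM, with 1 higher in members and *Cd14* the most abundant at 728. Of 7 plasmacytoid genes 4 had UMIs, at 211 and 232 CPM, with *Tcf4* the most abundant (110) and *Siglech*, *Ccr9* and *Klk1* at 0. Of 8 T cell genes 5 had UMIs, at 6.35 and 78.3 CPM, with *Cd3d*, *Cd3e* and *Cd4* at 0. The choice removed 4 cells by the Cd3 genes and the remaining cells include the T cells, so this contrast is partly fixed. Only 2 of 6 B cell genes had UMIs, at 1.06 and 4.11 CPM, and 1 of 6 mast cell genes, at 0.353 and 0.380. Neutrophil genes were found in 5 of 6 cases, at 20.1 and 114 CPM, with *Retnlg* at 0. Tumor and stromal genes were found in 6 of 7, at 61.0 and 30.3 CPM, with *Epcam* at 41.6 and *Krt8* at 0. All 12 macrophage genes had UMIs, summing to 2073 and 8362 CPM, with *Cd68* the most abundant at 457. At least 4 of the 12 were found in 67.4% of control and 56.9% of telmisartan members, and after thinning in 20.5% (14.96 to 27.1%) and 9.76% (5.14 to 16.4%). The C1q genes were uneven among members, with a UMI of *C1qa* in 62 of 310. Scrublet scores placed 27 members (8.71%) among the 942 highest of all cells (9.505% of 9911), a number equal to the same-tag doublets that tag mixing predicts. These were 20 control and 7 telmisartan members.

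The comparison of the groups asks which transcripts of these cells differ after the AT1 blocker. Of 4099 genes with at least 100 UMIs in the members, 36 were at least 2 times as high in the telmisartan pool (0.878%) and 41 at least 2 times lower (1.00%), 77 in all (1.88%). Without scaling these numbers were 17 higher and 110 lower. Log2 ratios of telmisartan to control had a median of -0.02, with 1930 genes above 0 (47.1%) and 2169 below (52.9%). In the remaining cells 135 of 11470 genes were at least 2 times higher (1.18%) and 29 at least 2 times lower (0.253%). Of the 36 genes higher in members, 34 lay above 0 in the remaining cells, as did 1720 of all 4099 (42.0%), and 13 were past 2-fold there, as were 28 (0.683%). Of the 41 lower genes, 29 lay below 0 in the remaining cells, as did 2379 of 4099 (58.0%), and 0 were past 2-fold, as were 4 (0.0976%). Whether members differ from the remaining cells in these ratios was not tested.

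MHC class II genes differed little between the pools. *H2-Aa* stood at 11277 CPM in control and 12918 in telmisartan members, a log2 ratio of 0.20 (0.16 to 0.23). *H2-Ab1* stood at 12347 and 14401 (0.22), and *H2-Eb1* at 8556 and 10188 (0.25). In the remaining cells the same genes went the other way, at -0.47, -0.40 and -0.46. Without scaling they stood at -0.06, -0.03 and -0.0048 in members. The list of 13 class II genes tested had 11 higher and 2 lower with telmisartan, where 47.1% and 52.9% of all genes tested were. Of the list 0 were past 2-fold, and its median log2 ratio was 0.19, which is the value of the rule gene *H2-DMb2*. Without that gene 10 of 12 were higher and 2 lower, with a median of 0.16 against -0.02 over all genes and -0.42 for the same 12 in the remaining cells. For UMIs per cell without scaling 1 of the 12 was higher and their median is -0.09, where the median of all genes is -0.28. The 13 genes of class I presentation had 9 higher, 4 lower and a median of 0.10, and the 13 of costimulation and checkpoints 11 higher, 2 lower and 0.12. Without scaling these medians are -0.16 and -0.13.

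Of the 8 genes whose detection chose the cells, 6 were higher and 2 lower with telmisartan, which describes the members and is no result about these genes. *Klrd1* stood at 308 CPM in control and 441 in telmisartan members (log2 0.52, 0.33 to 0.70), *Cd209a* at 151 and 200 (0.40, 0.13 to 0.67) and *Ffar2* at 71.6 and 119 (0.73). *Dpp4* stood at 124 and 166 CPM (0.42), *Kmo* at 228 and 257 (0.18, and -0.11 at a tag share of 90%) and *H2-DMb2* at 774 and 885 (0.19). *Plet1* went from 649 to 493 (-0.40, -0.55 to -0.25) and *Ccl17*, which attracts CCR4-bearing T cells, from 1987 to 1448 (-0.46, -0.54 to -0.37). Because such genes differ and telmisartan cells are shallower, the shares of members, 3.68% of control and 2.55% of telmisartan cells, are not read as a difference in cell number. Members were 1.498% of control and 1.25% of telmisartan cells when the rule was applied to cells thinned to 2000 UMIs.

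Type I interferon response genes were prominent among the rises. These genes are induced by signals of the interferon receptor, and many encode antiviral proteins. *Ifit2*, whose protein acts in antiviral defence, stood at 18.05 CPM in control and 83.4 in telmisartan members, a log2 ratio of 2.21 (1.61 to 2.84), against 0.45 in the remaining cells. *Rsad2*, the gene of the antiviral enzyme viperin, stood at 24.1 and 90.4 CPM (1.91, 1.37 to 2.46). *Isg15*, a ubiquitin-like modifier, stood at 54.1 and 166 CPM (1.62, 1.25 to 1.99). Of 13 list genes tested, 13 were higher and 6 past 2-fold, where 47.1% of all genes were higher and 0.878% at least 2 times as high. With members thinned to 2000 UMIs, *Ifit1*, *Ifit3* and *Ifi205* fell short of 2-fold, at 0.85, 0.94 and 0.998. *Ifit1* also did at 0.80 without members with at least 10 C1q UMIs and at 0.92 without *Ccl17* in the rule. *Ifi205* did at 0.965 without scaling. The list had a median log2 ratio of 0.91 against -0.02 over all genes and 0.62 for the same list in the remaining cells. The 20 genes with UMIs summed to 922 CPM in control and 1953 in telmisartan members, a log2 ratio of 1.08 (0.99 to 1.18), against 0.76 in the remaining cells.

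The interferon RNA was spread unevenly over cells. At least 3 genes of the list were found in 39 of 185 control members (21.1%, 15.4 to 27.7%) and 44 of 123 telmisartan members (35.8%, 27.3 to 44.9%), each thinned to 2000 UMIs. At least 4 were found in 11.9% (7.60 to 17.4%) and 20.3% (13.6 to 28.5%), and the intervals overlap at both numbers. Unthinned, the shares with at least 3 were 52.4% and 69.9%, and 15.2% of thinned T cells reached the same number. In telmisartan members 5 cells held 31.8% of the 1966 UMIs of the list, and in control members 5 cells held 20.3% of 1685. Without those 5 cells in each pool the median of the list was 0.90, with *Ifit2* at 1.40 and *Ifit3* at 0.90. Of 16 genes tested from the interferon-gamma response, 11 were higher and 5 lower, where 47.1% and 52.9% of all genes tested were. Their median was 0.28, which is -0.06 where cells needed 90% of their tag reads on 1 tag.

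The promoters of the type I interferon list were searched. Its genes were listed as interferon-induced beforehand, so the share with the element describes the list and tests nothing in these cells. RefSeq sequences of GRCm38.p6, 300 bases around each gene's start, matched 16 of the 21 genes of the list. The letters GAAA, any 2 bases and GAAA again, a core of the element bound by interferon-activated factors, were searched on both strands and occurred in 8 of these 16 promoters, against 943 of all 27025 (3.49%). The promoters of *Ifit1*, *Isg15* and *Rsad2* are shown from among the 8 with these letters. *Ifit2* is not among the 8. The capitals mark the matches, which overlap in *Isg15* and are descriptions of sequence only. *Ifit1* lies on the plus strand at chr19:34640639-34640938, *Isg15* on the minus strand at chr4:156200769-156201068 and *Rsad2* on the minus strand at chr12:26456403-26456702.
Ifit1: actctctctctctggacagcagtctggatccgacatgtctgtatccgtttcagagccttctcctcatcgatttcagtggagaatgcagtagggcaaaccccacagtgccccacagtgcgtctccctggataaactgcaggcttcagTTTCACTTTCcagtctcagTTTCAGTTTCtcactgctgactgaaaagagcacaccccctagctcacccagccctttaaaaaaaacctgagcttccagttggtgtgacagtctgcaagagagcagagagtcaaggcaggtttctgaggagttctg
Isg15: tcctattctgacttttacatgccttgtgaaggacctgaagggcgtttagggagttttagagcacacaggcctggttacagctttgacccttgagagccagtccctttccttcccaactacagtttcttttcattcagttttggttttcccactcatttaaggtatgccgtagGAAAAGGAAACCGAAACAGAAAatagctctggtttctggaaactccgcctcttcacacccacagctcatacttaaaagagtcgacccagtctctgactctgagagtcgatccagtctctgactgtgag
Rsad2: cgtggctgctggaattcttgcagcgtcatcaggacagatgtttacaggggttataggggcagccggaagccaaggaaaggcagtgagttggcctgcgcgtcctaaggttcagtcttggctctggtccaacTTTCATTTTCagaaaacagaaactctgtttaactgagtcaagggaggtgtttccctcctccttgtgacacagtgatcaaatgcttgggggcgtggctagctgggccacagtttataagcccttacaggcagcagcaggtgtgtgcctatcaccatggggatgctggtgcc

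Promoters of MHC class II genes carry a conserved array that ends in a Y box, and the letters CTGATTGG of that box were searched in the same way. They occurred in 4 of 12 class II promoters matched, against 1166 of 27025 (4.31%). From these 4, the promoters of *H2-Eb1* (chr17:34305617-34305916, plus strand) and *H2-Aa* (chr17:34287774-34288073, minus strand) are shown because the genes encode class II chains. *H2-Ab1*, which also encodes such a chain, is not among the 4. Capitals mark the box.
H2-Eb1: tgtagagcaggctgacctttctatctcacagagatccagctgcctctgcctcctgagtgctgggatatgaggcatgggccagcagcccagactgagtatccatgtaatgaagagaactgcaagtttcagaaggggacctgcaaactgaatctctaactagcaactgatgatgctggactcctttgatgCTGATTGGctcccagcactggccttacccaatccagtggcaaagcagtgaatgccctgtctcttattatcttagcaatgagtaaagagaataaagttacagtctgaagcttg
H2-Aa: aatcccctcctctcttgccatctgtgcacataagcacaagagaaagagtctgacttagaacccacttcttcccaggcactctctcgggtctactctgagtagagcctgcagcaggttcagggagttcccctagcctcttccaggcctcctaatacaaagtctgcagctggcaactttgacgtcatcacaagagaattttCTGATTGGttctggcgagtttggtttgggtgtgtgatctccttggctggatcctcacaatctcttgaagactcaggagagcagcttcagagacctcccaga

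Chemokine ligands split. *Cxcl10*, which draws CXCR3-bearing T cells, stood at 282 CPM in control and 824 in telmisartan members (log2 1.55, 1.39 to 1.71), against -0.07 in the remaining cells. *Cxcl9*, a ligand of the same receptor, stood at 1343 and 1221 CPM (-0.14, -0.24 to -0.04). At a tag share of 90% *Cxcl10* stood at 0.98, and at 10% mitochondrial UMIs *Cxcl9* took the other sign, at 0.089. *Cxcl3* and *Cxcl2*, whose products attract neutrophils, are named for their falls, and neutrophil attractants were not read as a list. *Cxcl3* went from 101 to 7.95 CPM (-3.67, -4.90 to -2.66) and *Cxcl2* from 1301 to 511 (-1.35, -1.49 to -1.21), while *Cxcl2* was at 0.25 in the remaining cells. *Cxcl3* stood at -2.32 without the cells of highest doublet score and at -2.28 without members with at least 10 C1q UMIs, and *Cxcl2* at -0.83 with 3 of the 8 rule genes. Both genes were higher in the remaining cells than in members, at 375 and 68.1 CPM for *Cxcl3* and 4223 and 1020 for *Cxcl2*, and the part of macrophage RNA in their falls was not tested. *Ccl22*, the partner of *Ccl17* at CCR4, stood at 952 and 573 CPM (-0.73, -0.87 to -0.59). Of all genes tested, 47.1% were higher and 52.9% lower, with 0.878% and 1.00% past 2-fold. Without *Ccl17*, whose value is the median of the whole list (-0.46), 14 chemokine genes tested had 5 higher and 9 lower, 1 and 2 of them past 2-fold, with a median of -0.39. It was -0.18 without the cells of highest doublet score and -0.16 without members rich in C1q. The 12 lectin and killer-lectin genes tested outside the rule had 2 higher and 10 lower, with a median of -0.71, which was -0.27 and -0.45 under the same removals. Single genes went the other way under these removals, with *Mgl2*, from 2511 to 1792 CPM (-0.49), at -0.57 and -0.70, and *Ccl22* at -0.86 and -0.92. The part of macrophage RNA in either list was not tested.

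Among the largest falls were genes that tumor macrophages express. *Lyz2*, the lysozyme gene, stood at 2427 CPM in control and 741 in telmisartan members (-1.71, -1.83 to -1.60). *Spp1*, which encodes osteopontin, went from 637 to 171 CPM (-1.90, -2.14 to -1.67) and *Msr1*, a scavenger receptor gene, from 256 to 53.6 (-2.25, -2.69 to -1.85). In the remaining cells these ratios were -0.15, -0.69 and -0.32. The 12 macrophage markers summed to 2298 CPM in control and 1665 in telmisartan members. Of the 10 tested, 8 were lower and 4 past 2-fold lower, where 52.9% of all genes were lower and 1.00% past 2-fold. Their median was -0.74, against -0.04 in the remaining cells. *C1qa*, *C1qc* and the lipid receptor gene *Trem2* were among those past 2-fold, with *Trem2* at 72.2 and 32.8 CPM (-1.14, -1.74 to -0.58).

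These falls varied with a few cells. Members with at least 10 UMIs of the C1q genes together numbered 29 in control and 7 in telmisartan. Without them *Lyz2* stood at -1.24, *Spp1* at -1.38 and *Msr1* at -1.72, and the median of the macrophage list at -0.24. Without the cells of highest doublet score *Lyz2* stood at -0.75, *Spp1* at -0.80 and *Msr1* at -1.63, while the falls of *C1qa*, *C1qb* and *C1qc* grew, from -1.21, -0.59 and -1.15 to -2.02, -1.18 and -1.26. At 5 of the 8 rule genes these stood at -0.79, -0.01 and -0.60. Without C1q-rich members they stood at -0.65, -0.26 and -0.33, values that the filter sets in part, as it counts these genes. *Trem2* stood within its interval under both removals, at -1.56 and -1.20, and at -0.66 with 3 of the 8 rule genes. Of the 41 lower genes, 8 remained past 2-fold under the former, with 3428 genes still at 100 UMIs or more, and 13 under the latter, with 3644. The C1q filter counts genes of the macrophage list and removed 29 control and 7 telmisartan members. Smaller falls after it follow in part from that choice. These falls are themselves of macrophage transcripts, and the part of such RNA in the result was not tested.

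Mitosis genes were lower in the telmisartan members. Of 13 tested, 13 were lower and 3 past 2-fold, where 52.9% of all genes were lower and 1.00% past 2-fold. The median log2 ratio was -0.88, against -0.02 over all genes and 0.11 for the list in the remaining cells. *Ccnb2*, a cyclin gene, stood at 51.4 and 19.9 CPM (-1.37, -2.15 to -0.66) and *Ube2c*, which takes part in the destruction of cyclins, at 135 and 55.6 (-1.28, -1.73 to -0.86). The third was *Cenpf*, a centromere gene, at 48.7 and 23.8 (-1.03), but it fell short of 2-fold under 7 of 14 alternatives, to -0.77 without the C1q-rich members. *Ube2c* fell short under 2 of 14, at -0.96 in both. The list summed to 1378 CPM in control and 816 in telmisartan members. After thinning, at least 2 of its genes were found in 43 of 185 control members (23.2%, 17.4 to 30.004%) and 16 of 123 telmisartan members (13.01%, 7.62 to 20.3%), against 36.9% and 22.8% unthinned and 20.2% of thinned T cells, which can divide. The intervals overlap. In control members 10 cells held 43.2% of the 2520 UMIs of the list, and in telmisartan members 10 cells held 80.9% of 821, so few cells carry much of both sums. DNA replication genes had 2 higher and 8 lower of 10, with a median of -0.33.

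Genes of early activation rose in part. *Nr4a3*, an orphan nuclear receptor gene induced by signalling, stood at 329 CPM in control and 902 in telmisartan members (1.46, 1.31 to 1.61), and at 1.47 in the remaining cells. *Egr3*, a zinc finger factor gene, stood at 25.2 and 85.4 CPM (1.76, 1.23 to 2.31) against -0.16 there. It was at 2.52 with 5 of the 8 rule genes, 2.42 without the C1q-rich members and 1.14 with 3 of the 8. Over the 21 immediate-early genes tested 14 were higher and 7 lower, where 47.1% and 52.9% of all genes tested were. Their median of 0.17 is -0.09 without scaling. The largest rise among genes with at least 100 UMIs belonged to *Vps37b*, an endosomal sorting gene, at 24.1 and 131 CPM (2.45, 1.94 to 2.97). *Ly6c2* and *Plac8*, which monocytes carry, stood at 31.7 and 103 CPM (1.70) and at 161 and 453 (1.49), and at 1.36 and 1.29 in the remaining cells. *Ly6c2* was at 1.09 at a tag share of 90% and at 2.25 without the C1q-rich members. *F13a1*, also a monocyte gene, stood at -1.23, and at 0.056 without the highest doublet scores. Of the 6 monocyte genes tested, 3 were higher and 3 lower. Receptors for metabolites, without the rule gene *Ffar2*, had 7 of 7 genes higher, with a median of 0.36 against 0.07 for the same genes in the remaining cells, and 6 of 7 without scaling.

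Genes of dendritic lineages named here differed by less than 2-fold between the pools. *Irf4* was at 62.9 CPM in control and 91.4 in telmisartan members (0.54, 0.13 to 0.95), *Irf8* at 165 and 243 (0.56, 0.31 to 0.81) and *Kit* at 125 and 190 (0.60, 0.31 to 0.88). *Zbtb46* was at 85.3 and 76.5 CPM (-0.16, -0.57 to 0.25), a difference not detectable at this depth that took the other sign, 0.15, with 3 of the 8 rule genes. Of 23 lineage factor genes tested, 13 were higher and 10 lower, where 47.1% and 52.9% of all genes tested were. Their median was 0.09, which is -0.16 without scaling. The receptor genes that telmisartan acts on were scarcely read: *Agtr1a* had 2 UMIs in the members, *Agtr1b* had 0 and *Pparg* had 4. No comparison of these between the pools was possible.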

How the data were processed

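The authors counted UMIs per gene and cell with the BD Rhapsody pipeline on GRCm38, intronic reads included, and the deposited values are these raw counts and counts of Sample Tag reads. Cells with 10 or more tag reads took the group of a tag that held 75% of them or more. Those kept had between 150 and 5000 genes, with no more than 20% of UMIs on mitochondrial genes. UMIs were summed per pool with pandas 2.3.3, scipy 1.17.1 and numpy 2.4.6 (Python 3.11.15). Intervals are exact Poisson, Clopper-Pearson and conditional binomial intervals at 95%. The log2 ratio intervals and the thinning were tested on simulated counts. These were Poisson counts, as the intervals assume, and lack the unevenness between cells described above. Doublets were scored with Scrublet in scanpy 1.11.5. Its threshold marked 1017 cells, and no cell was removed in the main results.

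Named genes are those of the rule, of fixed marker and gene lists, the 15 largest rises and falls among genes with at least 100 UMIs, and the highest and lowest ratios to the other populations. The members and lists were chosen with earlier results of these data known. Alternatives covered tag share, gene and mitochondrial limits, the rule, doublets, scaling (TMM of edgeR 4.0.16 under R 4.3.3, among others) and gene filters. Gene positions are from GENCODE on GRCm38. Results for some genes are not reported here.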

Additional observations from a re-analysis of the deposited data

Results flagged for a closer look

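Cells outside the sample assignment or the limits held members by their genes. Cells with reads split between the tags gave the predicted number of same-tag doublets, and whether those named here are doublets was not tested. Among 941 such cells, 64 (6.80%, 5.28 to 8.60%) met the other criteria, at a median of 7629 UMIs. Of the cells within the limits, 3.13% met them. Of cells with over 20% mitochondrial UMIs, 4 of 8959 met the other criteria, of those with over 5000 genes, 3 of 90 (3.33%), and of those with under 10 tag reads, 7 of 122 (5.74%). The cells outside the assignment or limits entered no comparison. They are named here because the rule finds a signal in data that the results leave out.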

How the results depend on the processing

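Under 14 alternatives each, the medians of 32 lists stayed within their own interval in 412 of 448 cases. That interval comes from the spread between the genes of a list, not from counting error. With few genes it spans the whole list, as for the 3 cDC1 genes tested, whose median ranged from -0.35 to 0.17. The alternatives also share many cells, so the count of cases says little about stability. The 30 genes with the largest rises and falls had 0 values of the other sign, and 18 of them were past 2-fold under every alternative. *F13a1*, a monocyte gene at -1.23, changed sign, to 0.056 without the highest doublet scores and to 0.26 without members with at least 10 C1q UMIs. That alternative and the one without the 5 members per pool richest in interferon UMIs were chosen after seeing the data, as were the counts and medians without the genes that chose the cells. The causes were not tested.

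Members as a share of control and telmisartan cells moved from 3.68% and 2.55% to 2.92% and 1.98% at a tag share of 90%, to 2.36% and 1.76% at 5 of 8 genes, to 6.01% and 3.58% at 3 of 8, and to 1.498% and 1.25% with the rule at 2000 UMIs. The control share moved to 2.82% without *Ccl17* in the rule and 3.13% without the C1q-rich members, and the telmisartan share to 3.41% at 10% mitochondrial UMIs.

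Genes at least 2-fold higher and lower with telmisartan, 36 and 41 of 4099 tested, became 17 and 110 of 4099 without scaling, 7 and 8 of 953 with members thinned to 2000 UMIs, 153 and 430 of 8571 at 20 UMIs per gene, and 9 and 13 of 1494 at 300. At a tag share of 90% they were 43 and 41 of 2876, of which 16 and 23 were among the main ones. With 3 of 8 genes they became 63 and 54 of 5468, with 5 of 8, 26 and 22 of 3103, without the highest doublet scores 38 and 26 of 3644, and without the C1q-rich members 35 and 21 of 3428.

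The median over all genes, -0.02, moved to -0.28 without scaling, a shift that applies to every ratio on that scale. It was -0.0055 with 5 of 8 genes, -0.040 with 3 of 8, -0.00046 without *Ccl17*, -0.0048 without the C1q-rich members, 0.012 with TMM factors, 0.035 after thinning, -0.060 at 20 UMIs per gene and 0.00095 at 300. Depth limits genes of few UMIs: *Ifit2* rests on 33 UMIs in control and 84 in telmisartan members.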

Other observations

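Further gene groups of the members are given as counts and medians of log2 ratios, telmisartan to control, against -0.02 over all genes tested. Among all genes tested, 47.1% were higher and 52.9% lower. Receptors that steer dendritic cells to tissue and lymph node had 7 of 9 genes higher and a median of 0.35, with *Ccr7* at 371 CPM in control and 327 in telmisartan members (-0.18, -0.38 to 0.01). The choice of members limits *Ccr7*, which took the other sign, 0.40, with 3 of the 8 rule genes and stood at -0.50 without the members with at least 10 C1q UMIs. Pattern recognition genes, which sense microbes and damage, had 6 of 7 higher and a median of 0.38. Genes of the ID family and of TGF-beta signalling had 5 of 7 higher and a median of 0.46, which is 0.06 with 3 of the 8 rule genes. Genes induced by interleukin 4, without the rule gene *Ccl17*, had 8 of 10 lower and a median of -0.17, which is 0.03 where cells needed 90% of their tag reads on 1 tag. Cathepsins and other lysosomal genes, which cut antigen before loading, had 10 of 14 lower and a median of -0.20, which is -0.0063 without the highest doublet scores and -0.03 without the C1q-rich members. Of 14 cytoskeletal genes 10 were lower, with a median of -0.18 that is 0.02 after thinning. Genes of glycolysis and hypoxia had 10 of 17 lower and a median of -0.16, which is -0.02 with 5 of the 8 rule genes. NF-kB feedback genes had 8 of 11 higher with a median of 0.13, and heat shock genes 8 of 11 with 0.09, medians that are -0.13 and -0.17 without scaling.

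The members share their source: they come from 1 capture and from 1 pool of mice per group, so a difference between mice, in the handling of the pools or in the tumors cannot be told apart from the treatment. The counting intervals do not cover these. The rule reads few molecules per cell, so a deep cell enters more readily than a shallow one. Control cells were the deeper ones here. Protein levels of the named genes were not measured in the members.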
